A study of Mus musculus with 1037 samples.

Results

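The genes described here are those of the mitochondrial respiratory chain and ATP synthase, measured by Smart-seq2 (full-length mRNA sequencing of sorted single cells) in the outer root sheath (ORS) of the mouse hair follicle. They were chosen by name only: rows of the count table whose Ensembl identifier maps to a protein-coding mouse symbol starting with Nduf (a, b, c, s or v), Cox4 to Cox8, Uqcr, Atp5 or mt-, plus Sdha, Sdhb, Sdhc and Sdhd. Of the 21604 protein-coding rows with a symbol, this gave 13 that are encoded by mitochondrial DNA (mt-encoded) and 98 by nuclear DNA, and 8 of the nuclear genes (Ndufaf) are complex I assembly factors rather than subunits. The 90 nuclear subunit rows fall into 38 for complex I, 4 for complex II, 8 for complex III, 21 for complex IV and 19 for complex V. They include 2 rows named Atp5po, and Cox5b-ps and Ndufb11b, which the annotation lists as protein-coding.

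All cells were wild type and came from skin. LOS cells carry the label lower ORS and MOS and UOS cells the label upper-middle ORS, all 3 at AnaVI, the last stage of hair growth. The P17f plates hold upper ORS cells at CatVI, late in follicle regression: plates 1 and 2 are labelled PhagoHFSC_alive, plate 5 PhagoHFSC_apop and plate 6 NonPhagoHFSC_apop. OSalive and OSapop cells come from the upper ORS at CatVII. The labels give the stage. The titles of the CatVI cells start with P17f, where the study writes P for postnatal day and the f is not explained, and no age is given for the others. The study compared both CD34-high stem cells and CD34-low progenitors of the upper ORS, and the Cd34 level of each pool is given below. By the study's methods, cells negative for Sca1 and for lineage markers and positive for CD34 and Itga6 were sorted from the pooled skin of several mice, and no animal is named. Each group is therefore 1 pool without replicates, no test between groups was made, and the stage cannot be told apart from the pool, the sort and the plate. Intervals given below are 95% intervals for counting error only, and reads after PCR without molecular identifiers are not independent molecules.

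Cells with 2000 or more detected genes were kept: 39 of 93 LOS cells, 38 of 72 MOS cells, all but 22 UOS cells, 19 of 88, 9 of 73, 15 of 85 and 14 of 69 cells on plates 1, 2, 5 and 6, all but 31 OSalive cells and 92 OSapop cells (all but 49), 463 in all. Plates 3 and 4, labelled NonPhagoHFSC_alive, had no such cell. Protein-coding counts per group ran from 328232 on plate 6 to 47720291 in OSalive, and the median per cell was 90246 in UOS, 364123 in OSalive and 81723 in OSapop. A single row without a symbol here took 56.3% to 66.5% of all counts, so levels are counts scaled to 1000000 protein-coding counts (CPM). Of 9 ORS markers, all 9 had counts in every group. Their summed level was 19804 CPM in UOS, 17331 CPM in OSalive and 17743 CPM in OSapop, 7001 CPM in LOS and 5943 CPM on plate 2. The sum hides differences between markers. From UOS to OSalive, Krt5 went from 6102 to 10130 CPM, and Sox9, Itga6, Cd34 and Cdh3 were also higher. Krt14 went from 4336 to 2220 CPM, Krt15 from 4732 to 1393 CPM and Krt17 from 2129 to 506 CPM. Lhx2 was nearly level. Cd34 had 120, 110 and 382 CPM in LOS, MOS and UOS, and 669 and 552 CPM in OSalive and OSapop. On plates 1, 2, 5 and 6 it had 6.92, 52.6, 8.70 and 12.2 CPM. The 5 fibroblast genes summed to 3520 CPM in LOS, 1056 CPM in UOS and 742 CPM in OSalive, and the 5 melanocyte genes to 830.5 CPM in LOS, 711 CPM on plate 2 and 44.2 CPM in UOS. Their part in the results of these pools was not tested.

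The respiratory chain passes electrons from NADH (complex I) and succinate (complex II) through complex III to oxygen at complex IV, and complex V uses the resulting proton gradient to make ATP. Complexes I, III, IV and V are assembled from subunits of both genomes, whereas complex II is encoded by nuclear genes alone. The mt-encoded subunits form the hydrophobic cores, and nuclear subunits reach the organelle by protein import. Nuclear subunit genes are classically described as targets of NRF1, GABPA (an ETS family factor) and YY1. Hair follicle stem cells are known to produce lactate by glycolysis.

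The promoters below belong to the subunits with the 2 lowest and the 2 highest CatVII-to-AnaVI ratios among those whose promoter holds the letters of an NRF1 site. They were chosen by these values, to show that the letters stood at both ends of the range. Sequences are from RefSeq, GRCm38.p6, from 250 bases before to 50 bases after the gene's start, 5′ to 3′ on the gene's strand. Capitals mark the letters GCGCATGC (NRF1) or CCGGAAGT (ETS) read on either strand, and the NRF1 letters can overlap their own reverse complement.

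Uqcr11 (chr10:80406772-80407071, minus strand): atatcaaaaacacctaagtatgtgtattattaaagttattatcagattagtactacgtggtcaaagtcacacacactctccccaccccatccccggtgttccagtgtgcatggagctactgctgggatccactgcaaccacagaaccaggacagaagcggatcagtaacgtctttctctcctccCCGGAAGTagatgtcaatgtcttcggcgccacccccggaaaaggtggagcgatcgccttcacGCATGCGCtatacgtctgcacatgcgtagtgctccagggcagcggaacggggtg
Atp5me (chr5:108434350-108434649, minus strand): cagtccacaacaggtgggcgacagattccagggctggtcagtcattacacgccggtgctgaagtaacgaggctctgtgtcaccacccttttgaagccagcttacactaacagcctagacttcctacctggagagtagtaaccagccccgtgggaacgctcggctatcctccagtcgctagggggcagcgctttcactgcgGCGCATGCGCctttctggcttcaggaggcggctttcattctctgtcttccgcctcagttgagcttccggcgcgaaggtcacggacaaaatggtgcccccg
Ndufa11 (chr17:56717512-56717811, plus strand): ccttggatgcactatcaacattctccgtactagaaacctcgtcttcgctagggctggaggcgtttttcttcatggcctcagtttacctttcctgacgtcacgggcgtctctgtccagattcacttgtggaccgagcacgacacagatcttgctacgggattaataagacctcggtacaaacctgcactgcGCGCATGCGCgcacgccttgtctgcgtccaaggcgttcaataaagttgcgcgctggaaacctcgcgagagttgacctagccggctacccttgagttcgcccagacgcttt
Atp5mc2 (chr15:102670998-102671297, minus strand): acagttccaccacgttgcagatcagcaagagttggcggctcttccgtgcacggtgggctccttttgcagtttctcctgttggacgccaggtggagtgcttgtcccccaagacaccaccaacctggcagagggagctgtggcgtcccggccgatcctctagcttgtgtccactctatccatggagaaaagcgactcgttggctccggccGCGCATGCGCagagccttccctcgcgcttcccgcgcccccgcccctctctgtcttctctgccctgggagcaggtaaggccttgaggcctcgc

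The NRF1 letters began at position -4 from the start in Uqcr11, -50 in Atp5me, -60 in Ndufa11 and -42 in Atp5mc2. Of the 98 nuclear members, 76 had a promoter in the table, some under an older symbol. The letters GCGCATGC or their reverse complement GCATGCGC were found in 12 of the 76 (15.8%), against 3.88% of 17415 other protein-coding genes and 2.71% of all 32851 promoters in the table. The letters AAGATGGC (YY1, reverse complement GCCATCTT) were in 11 of 76 (14.5%), against 3.52% of the other genes and 2.75% of all promoters, and CCGGAAGT (ETS, reverse complement ACTTCCGG) in 5 of 76 (6.58%), against 5.68% and 3.89%. A match describes letters and not a bound site. The 10 measured subunits with the NRF1 letters had a median ratio, defined below, of -0.69 between OSalive and UOS, against -1.34 for the 55 without them. The split was similar for the YY1 letters, at -0.97 for 10 with and -1.34 for 55 without, and for the ETS letters, at -0.91 for 5 with and -1.34 for 60 without.

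Nuclear and mt-encoded transcripts took different courses from AnaVI to catagen. Counts of the 90 nuclear subunits made up 0.889% of protein-coding counts in LOS, 0.631% in MOS and 0.727% in UOS. They made up 0.265%, 0.461%, 0.302% and 0.316% on P17f plates 1, 2, 5 and 6, 0.242% in OSalive and 0.246% in OSapop. All 6 catagen pools were thus below all 3 AnaVI pools. These shares take no account of transcript length, and on plates 2 and 5 the subunits stood close to other genes of similar length, as given below. The share in OSalive was 3.00-fold lower than in UOS, a log2 ratio of -1.58 (-1.60 to -1.57).

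The 13 mt-encoded genes showed no such order. They held 2.01% of protein-coding counts in LOS, 0.865% in MOS, 1.70% in UOS, 1.32%, 4.24%, 1.88% and 2.13% on plates 1, 2, 5 and 6, 1.64% in OSalive and 1.402% in OSapop. On plate 2, 1 of the 9 cells gave 67.2% of these counts, and without it the share was 1.53%. The log2 ratio of OSalive to UOS was -0.05 (-0.06 to -0.05). With MOS as the reference, chosen after seeing the data, it was 0.92, since MOS stood lowest. The mt-encoded counts per nuclear subunit count were 2.34 in UOS, 1.37 in MOS and 2.26 in LOS, and lay between 4.97 and 9.19 on the plates, at 6.76 in OSalive and at 5.70 in OSapop.

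**Figure D1:**
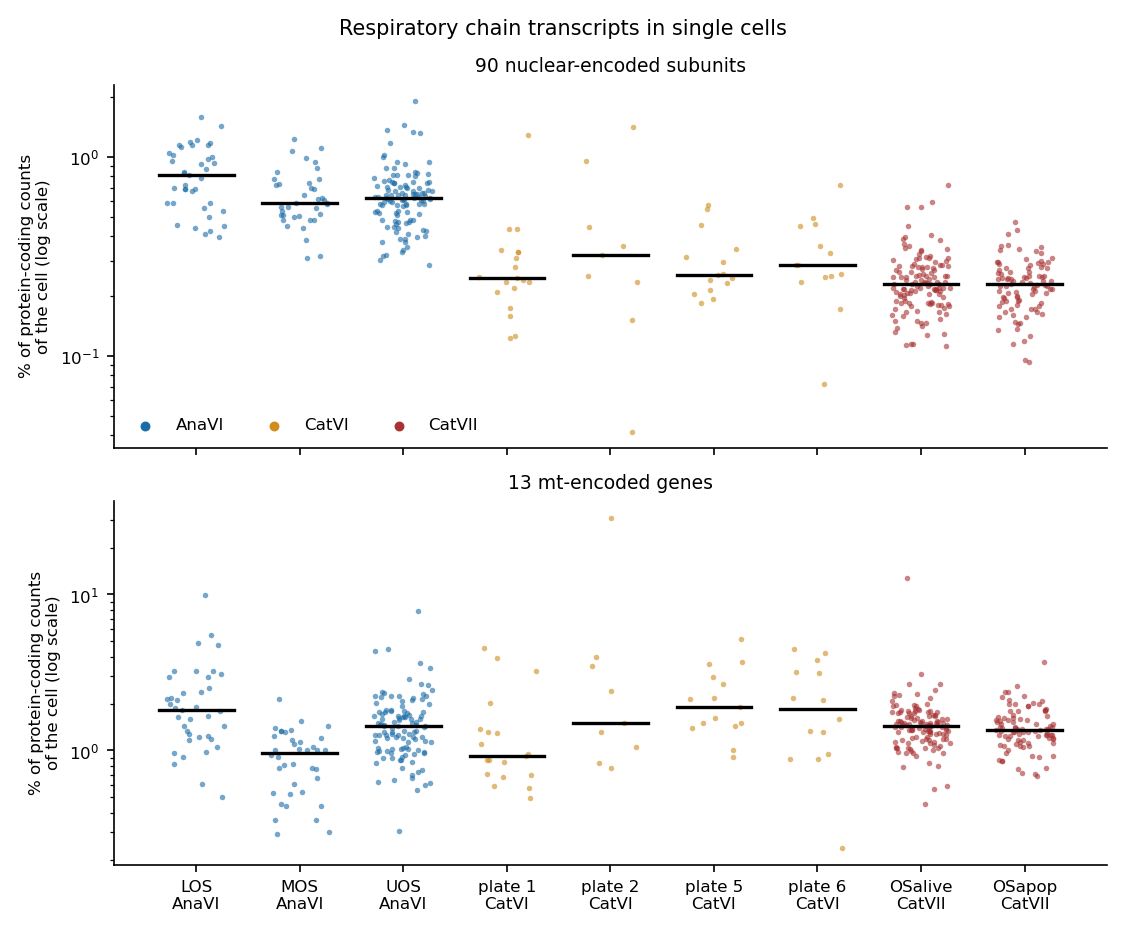
Share of protein-coding counts (%, log scale) held by the 90 nuclear-encoded subunits (top) and the 13 mt-encoded genes (bottom) in each of the 463 cells, by group, with bars at group medians. The nuclear medians lie at 0.624% in UOS and 0.229% in OSalive, while the mt-encoded medians lie at 1.43% and 1.44%.

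The order of the nuclear shares held for the median cells, while single cells overlapped. The highest cell had 1.29% on plate 1, 1.41% on plate 2 and 0.725% in OSalive, and the lowest UOS cell had 0.285%. The median cell had 0.813% of its counts in nuclear subunits in LOS, 0.587% in MOS, 0.624% in UOS, 0.248%, 0.323%, 0.256% and 0.286% on the plates, 0.229% in OSalive and 0.229% in OSapop. Of the OSalive cells, 1 reached the UOS median, and 4 reached the UOS lower quartile of 0.504%. No UOS cell lay at or below the OSalive median. The median cell had 1.43% mt-encoded counts in UOS and 1.44% in OSalive, with quartiles at 1.02% and 1.78% in UOS and at 1.19% and 1.69% in OSalive. Across all UOS cells that were kept, Spearman's rho between both shares was 0.27, and across the OSalive cells 0.03. Both shares of a cell have the same denominator, and the depth of a cell had a rho of 0.46 with the nuclear share in UOS and -0.08 in OSalive.

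Depth differed between the groups and was therefore matched in several ways. In cells thinned to 20000 protein-coding counts, the median number of the 90 subunits detected was 52 in LOS, 37.5 in MOS, 41 in UOS, 20, 20, 25 and 29 on plates 1, 2, 5 and 6, and 16 in both OSalive and OSapop. Thinning left out the shallower cells, 18 in LOS, 12 in MOS, 10 in UOS, 2, 2, 0 and 7 on the plates, 1 in OSalive and 14 in OSapop. Without thinning the medians were 44, 46 and 59 for LOS, MOS and UOS, and 31 and 25.5 for OSalive and OSapop. In cells of 50000 to 200000 protein-coding counts, a range chosen after seeing the data, nuclear subunits held 0.652% in 62 UOS cells, 0.236% in 23 OSalive cells and 0.232% in 35 OSapop cells.

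Most nuclear subunits have short transcripts, and short transcripts of other genes were also lower in OSalive. Among genes that are no members, the median log2 ratio of OSalive to UOS was -1.67 for genes with canonical transcripts of 500 to 750 bases, -1.20 for 270 genes of 750 to 1000, -0.77 for 800 of 1000 to 1500, -0.16 for 2269 of 1500 to 2500 and 0.11 for 8593 longer ones. The 39 genes under 500 bases stood at 0.30. Each member was therefore read against the median of the other genes in its own length class, called here its relative ratio, and counted as past the fold at a relative log2 ratio of 1 or more either way. A gene had to reach 100 counts in the compared pools together.

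Nuclear subunits were lower than genes of similar length. Of the 90, 80 passed the count minimum, and 77 of these had a log2 ratio below 0. Their median log2 ratio was -2.19 and their median relative ratio -1.36, with quartiles at -2.18 and -0.58. Past the fold were 48 lower and 3 higher subunits, or 51 of 80. Of all 12199 protein-coding genes with enough counts, 17.3% were past the fold lower and 14.6% higher. By length class the median relative ratio was -3.39 for the 4 subunits under 500 bases, -0.92 for the 22 of 500 to 750, -0.53 for the 12 of 750 to 1000, -1.40 for the 11 of 1000 to 1500, -1.52 for the 16 of 1500 to 2500 and -1.89 for the 15 longer ones. The reference matters for the size: the median relative ratio was -1.94 with the union of all exons as length, -1.52 with the coding length, -1.19 with MOS as the reference and -0.89 in thinned cells, where 57 subunits had enough counts.

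**Figure D2:**
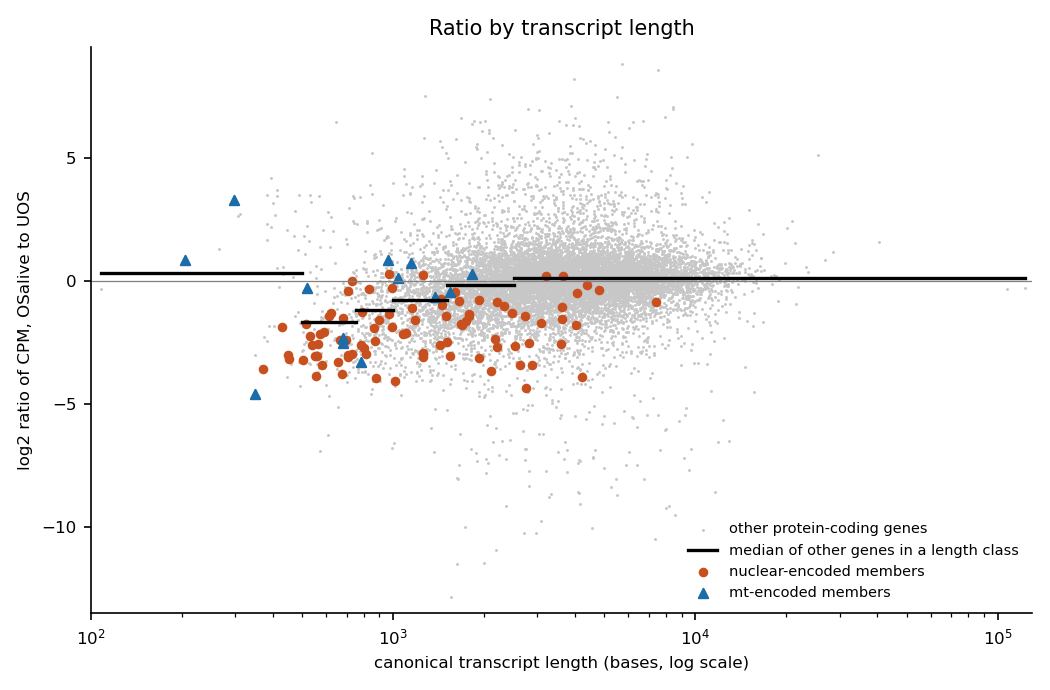
Log2 ratio of CPM in OSalive to UOS against canonical transcript length (bases, log scale) for protein-coding genes with 100 or more counts. Grey points are other genes, black lines their medians per length class, orange points nuclear-encoded members and blue triangles mt-encoded genes. Nuclear members lie mostly under the black lines at every length, and the line itself sinks from 0.11 at 2500 bases and more to -1.67 at 500 to 750.

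The complexes differed in degree. The median relative ratio of OSalive to UOS was -1.24 over 37 measured complex I subunits, -0.86 over 4 of complex II, -2.18 over 8 of complex III, -1.34 over 13 of complex IV and -1.37 over 18 of complex V. All 8 complex III subunits lay below their length class, as did 32 of 37 for complex I, 12 of 13 for complex IV and 16 of 18 for complex V. No test of the differences between complexes was made.

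**Figure D3:**
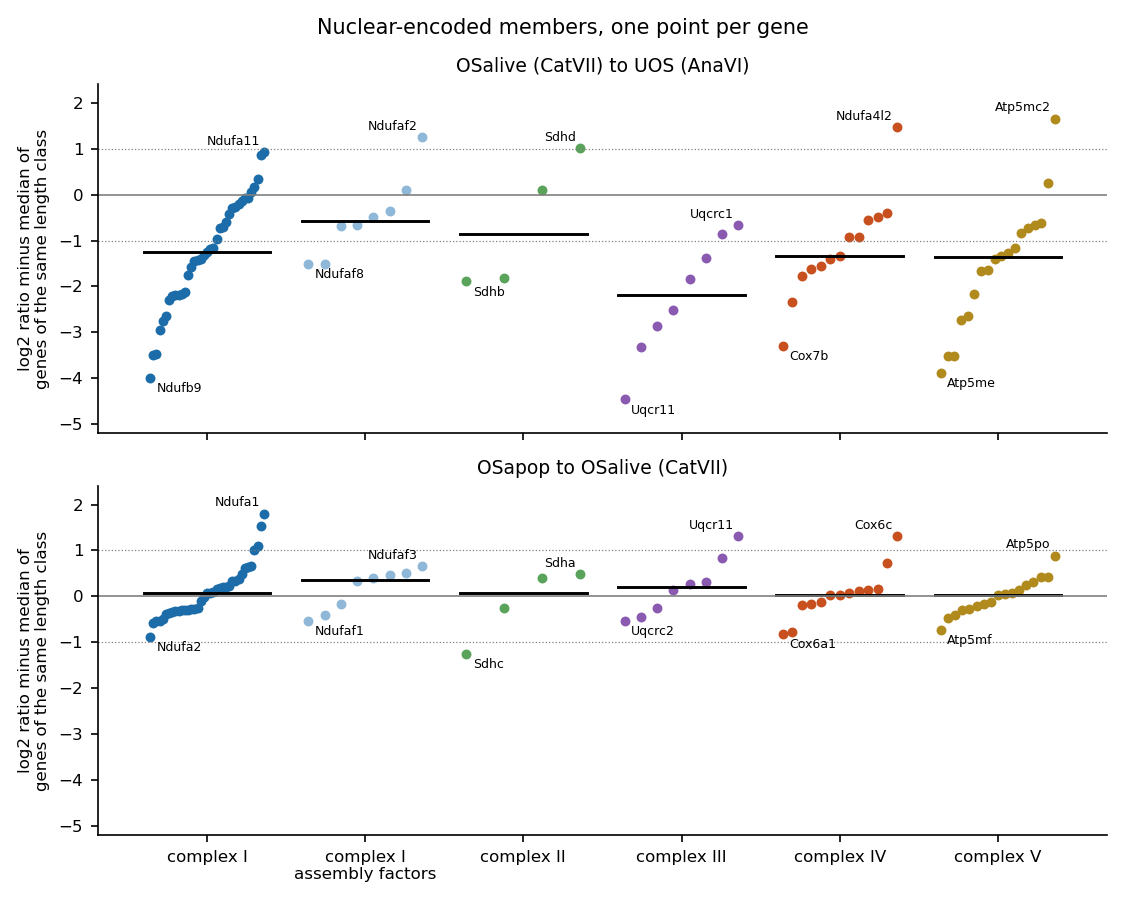
Relative log2 ratio (ratio of CPM minus the median of other genes of the same length class) of each nuclear member with 100 or more counts, by complex, with bars at medians. In OSalive to UOS (top) medians run from -2.18 in complex III to -0.57 in the assembly factors, and in OSapop to OSalive (bottom) from 0.03 in complex V to 0.36 in the assembly factors. Dotted lines mark the fold of 1.

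Complex I takes electrons from NADH. Its highest members per length in UOS were Ndufb8 with 107.8 CPM per kb, Ndufs8 with 85.97 CPM per kb and Ndufa2 with 80.5 CPM per kb, and in OSalive they stood at 38.01, 35.6 and 7.53 CPM per kb. Ndufb8 and Ndufa2 are accessory subunits, and Ndufs8 carries iron-sulfur clusters in the electron path. Ndufb8 was lower on the CPM scale, at -1.504 (-1.62 to -1.38) in log2, but at 0.16 relative to its length class. Ndufb9, an accessory subunit of the membrane arm, had the lowest relative ratio of the complex. It had 124.4 CPM in LOS, 95.5 in MOS and 108.4 in UOS, 13.8, 43.1, 11.97 and 36.6 CPM on the plates, 7.31 in OSalive and 5.57 in OSapop. Every catagen pool was below every AnaVI pool, and the log2 ratio of OSalive to UOS was -3.89 (-4.06 to -3.72), a relative ratio of -4.00. Its canonical transcript of 4197 bases puts it among long genes, and on the CPM scale Ndufa5 was lower still, at -3.95 (-4.31 to -3.60).

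Core subunits of complex I were not all alike. Ndufv1, which binds NADH, had a relative ratio of -1.58, and Ndufs1, an iron-sulfur protein, -1.18. Ndufs7, the iron-sulfur protein next to the quinone, had 52.5 CPM in UOS and 41.4 CPM in OSalive, a log2 ratio of -0.34 (-0.46 to -0.22) and a relative ratio of 0.86. Ndufa11, an accessory membrane subunit whose promoter is shown above, had 60.8 CPM in UOS and 50.3 CPM in OSalive, a log2 ratio of -0.27 (-0.39 to -0.16) and a relative ratio of 0.92. Of the 37, 21 were past the fold lower and none past it higher. Elsewhere in catagen Ndufs7 and Ndufa11 were lower. Ndufs7 had 16.4, 31.1, 22.8 and 18.3 CPM on the plates and 34.1 CPM in OSapop, against 86.5 CPM in MOS. Ndufa11 had 13.8, 26.3, 14.1 and 21.3 CPM on the plates and 29.7 CPM in OSapop.

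Complex II split by subunit. Sdha, the flavoprotein that oxidises succinate, had 239.3 CPM in LOS, 119.5 in MOS and 151.7 in UOS, 95.2, 62.2, 39.2 and 57.9 CPM on the plates, 46.04 in OSalive and 64.3 in OSapop. Sdhb, the iron-sulfur subunit, had 96.4 CPM in UOS and 27.95 CPM in OSalive. Their log2 ratios of OSalive to UOS were -1.72 (-1.81 to -1.63) and -1.79 (-1.89 to -1.68). In OSalive the membrane anchors went the other way. Sdhc had 38.3 CPM in UOS and 44.4 CPM in OSalive, a ratio of 0.22 (0.08 to 0.35), and Sdhd 43.4 and 51.3 CPM, a ratio of 0.24 (0.11 to 0.37). Relative to length, Sdhd stood at 1.01 and Sdhc at 0.11. Of the other catagen pools, only plate 2 shared this on the CPM scale, and only for Sdhd. Sdhc had 23.4, 16.7, 6.53 and 15.2 CPM on the plates and 18.6 CPM in OSapop, all below UOS. Sdhd had 21.6, 74.2, 5.44 and 18.3 CPM on the plates and 40.4 CPM in OSapop, with plate 2 alone above UOS. Relative to length, the ratio of Sdhd to UOS was 0.83 in OSapop and 0.10, 1.50, -1.89 and -0.51 on plates 1, 2, 5 and 6.

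Complex III holds the lowest of the measured nuclear members. Uqcr11, a small subunit, had 82.9 CPM in LOS, 30.6 in MOS and 49.8 in UOS, 15.6, 50.2, 3.26 and 36.6 CPM on the plates, 2.43 in OSalive and 6.01 in OSapop. Plates 2 and 6 lay within the AnaVI range, and the CatVII pools lay below it. The level in OSalive was 20.5-fold lower than in UOS, with a log2 ratio of -4.36 (-4.65 to -4.07). Its promoter, shown above, holds both NRF1 and ETS letters. Uqcr10, another small subunit, had a relative ratio of -3.31 and Uqcrfs1, the Rieske iron-sulfur protein, -2.52. Per length, Uqcrc1, a core protein, was highest with 174.8 CPM per kb in UOS and 98.6 CPM per kb in OSalive, followed in UOS by Uqcrb with 142.96 and Uqcrh, the hinge protein, with 122.2 CPM per kb. In OSalive, Uqcrb stood at 17.4 and Uqcrh at 20.2 CPM per kb. Uqcrc1 had the smallest difference of the complex, with a log2 ratio of -0.83 (-0.88 to -0.77).

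Complex IV, cytochrome c oxidase, was led by Cox4i1, its largest nuclear subunit. Cox4i1 had 286.6 CPM in LOS, 357 in MOS and 277.2 in UOS, 44.99, 110.05, 93.6 and 115.8 CPM on the plates, 45.4 in OSalive and 37.03 in OSapop. Every catagen pool was below every AnaVI pool, and OSalive was 6.10-fold lower than UOS, with a log2 ratio of -2.61 (-2.69 to -2.53). Cox8a followed with 216.4 CPM per kb in UOS and 36.2 CPM per kb in OSalive, and Cox6c with 208.6 and 22.5 CPM per kb. Cox7b was the lowest measured member, with 105.04 CPM in UOS and 6.31 CPM in OSalive, a log2 ratio of -4.06 (-4.24 to -3.88) and a relative ratio of -3.29. Cox7a2l, a factor in joining complexes III and IV into supercomplexes, had a relative ratio of -2.33.

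Among paired isoforms of complex IV, the forms of most tissues had the higher levels. Cox6a2, Cox7b2, Cox8b and Cox8c had no count in any of the 9 pools, where none allows up to 0.208 CPM in UOS and 0.0629 CPM in OSalive, whereas Cox6a1, Cox7b and Cox8a had 133.02, 103.6 and 216.4 CPM per kb in UOS. Cox7a1, the heart and muscle form, reached at most 2.72 CPM per kb, in MOS, against 91.8 CPM per kb in UOS for Cox7a2. Cox6b2, the testis form, had 3.36 CPM per kb in UOS and 16.5 in LOS, against 156.8 and 121.2 for Cox6b1. In OSapop it had 3.22 CPM per kb from 26 counts, against 14.2 for Cox6b1. Cox4i2, an oxygen-responsive form, had 49 counts in 3 of 39 LOS cells, which is 29.1 CPM per kb, and at most 2 counts in any other pool. LOS is also the pool with the highest fibroblast and melanocyte marker levels. Ndufa4l2, a hypoxia-induced relative of Ndufa4, had 8.36 CPM per kb in OSalive, 6.89 in UOS, 21.4 in LOS and none on any plate, and it was seen in 8.04% of UOS cells and 12% of OSalive cells. Ndufa4 had 84.5 CPM per kb in UOS and 18.2 in OSalive. The relative ratio was 1.48 for Ndufa4l2, whose own log2 ratio was 0.28 (-0.05 to 0.62), and -0.55 for Ndufa4. Of the 967 bases of Ndufa4l2, 729 match a transcript of the protein-coding gene Shmt2 at 100% identity. Over all groups Shmt2 had 5862 counts and Ndufa4l2 585, which limits the reading of Ndufa4l2.

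Complex V, ATP synthase, had the most abundant nuclear members. Atp5f1b, the catalytic beta subunit, had 1136 CPM in LOS, 873 in MOS and 779 in UOS, 446, 684, 316 and 258.96 CPM on the plates, 454 in OSalive and 520 in OSapop. Atp5f1a, the alpha subunit, had 643 CPM in UOS and 257.2 CPM in OSalive. The log2 ratios of OSalive to UOS were -0.78 (-0.81 to -0.75) and -1.32 (-1.36 to -1.28). Atp5if1, an inhibitor of the reverse reaction, had 130 CPM in UOS and 24.9 CPM in OSalive, with a log2 ratio of -2.38 (-2.49 to -2.28) and a relative ratio of -0.72. The lowest members were Atp5me, Atp5mj and Atp5po. Atp5me and Atp5mj are small membrane subunits with relative ratios of -3.88 and -3.52, and Atp5po joins the stalk to the catalytic head and stood at -3.51. The second row named Atp5po, of 530 bases, had too few counts.

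The 3 genes for the c-ring protein, Atp5mc1, Atp5mc2 and Atp5mc3, encode the same mature subunit and took different courses. Per length they were close in UOS, at 137.3, 172.9 and 156.4 CPM per kb. In OSalive they were at 51.7, 171.6 and 43.3 CPM per kb. Atp5mc2 had 123.02 CPM in LOS, 88.3 in MOS and 126.4 in UOS, 51.05, 129.2, 52.2 and 33.5 CPM on the plates, 125.4 in OSalive and 106.06 in OSapop. It was found in 89.6% of OSalive and 84.8% of UOS cells, its log2 ratio was -0.01 (-0.09 to 0.07), and its relative ratio of 1.66 was the highest of all measured nuclear members. Atp5mc1 and Atp5mc3 had log2 ratios of -1.41 (-1.52 to -1.30) and -1.85 (-1.94 to -1.77).

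**Figure D4:**
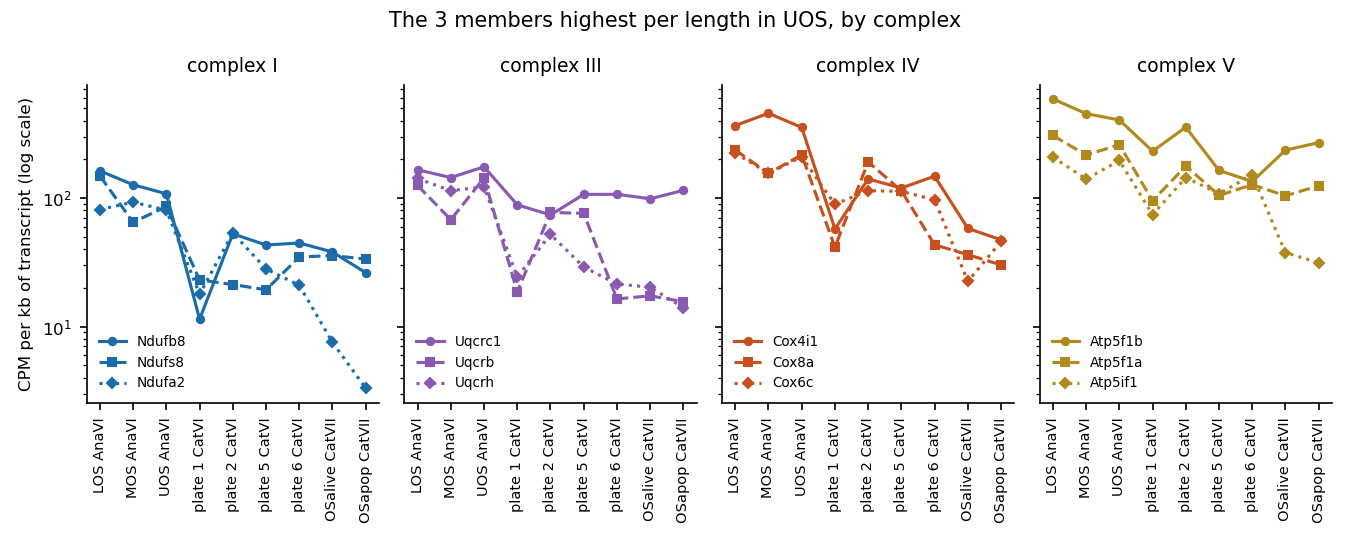
Level per length (CPM per kb of canonical transcript, log scale) in each pool for the 3 members of complexes I, III, IV and V that were highest per length in UOS. Lines only join the points of a gene. All 12 genes are lower in OSalive than in UOS, from 404 to 235.8 CPM per kb for Atp5f1b and from 354 to 57.996 CPM per kb for Cox4i1, while some plates reach the AnaVI range, such as plate 2 for Cox8a at 190.9 CPM per kb.

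Other mitochondrial genes were read on the same scale. The 8 assembly factors had a median relative ratio of -0.57 between OSalive and UOS, with 2 lower and 1 higher past the fold. Ndufaf2 was the higher one at 1.25, from 4.37 CPM in UOS and 3.27 CPM in OSalive, with a log2 ratio of -0.42 (-0.85 to 0.03). For 78 mitochondrial ribosomal proteins the median was -0.83, with 36 lower and 3 higher. Of 13 import and chaperone genes, 9 were lower and none higher past the fold, with a median of -1.21. Among them Tomm20, an import receptor, stood at -1.85 and Hspd1, the chaperonin Hsp60, at -1.89. The 81 cytosolic ribosomal proteins, which are not mitochondrial, had a median of -2.13, with 62 of 78 measured genes lower and 2 higher past the fold. The list of 15 regulators and carriers had a median of -0.20, with 3 lower and 2 higher. Cycs, which carries electrons from complex III to IV, stood at -3.22 with 54.2 CPM in UOS and 6.24 CPM in OSalive. Tfam, which packages and transcribes mitochondrial DNA, stood at -1.54 and Slirp, which stabilises mt mRNA, at -1.92. The coactivators Ppargc1a and Ppargc1b, which promote mitochondrial biogenesis, stood at 1.97 and 1.26, with Ppargc1a at 4.37 CPM in UOS and 18.4 CPM in OSalive. The other catagen pools were lower for Ppargc1a, with 6.90 CPM in OSapop and no count on any of the shallower plates. Nrf1 itself stood at 0.04 and Gabpa at -0.35.

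The 13 mt-encoded genes lie on chromosome M without introns, and behind their nearly level sum single genes went apart. Mt-Co1, the catalytic core of complex IV, was highest per length at 4605 CPM per kb in UOS and 3421 CPM per kb in OSalive. Mt-Cytb of complex III had 3052, 1246 and 2150 CPM in LOS, MOS and UOS, 1987, 7261, 3029 and 3955 CPM on the plates, 3603 CPM in OSalive and 2981 CPM in OSapop. Its log2 ratio of OSalive to UOS was 0.75 (0.73 to 0.76). Of the complex I genes, mt-Nd1 had a ratio of 0.84 (0.82 to 0.86), mt-Nd5 0.30 (0.28 to 0.32), mt-Nd2 0.12 (0.08 to 0.16), mt-Nd6 -0.29 (-0.38 to -0.20) and mt-Nd4 -0.65 (-0.67 to -0.63). Mt-Atp8 stood at 0.87 (0.81 to 0.93) and mt-Co1 at -0.43 (-0.44 to -0.42). Mt-Co3, mt-Co2, mt-Atp6 and mt-Nd3 were far lower, at -3.31 (-3.35 to -3.27), -2.53 (-2.60 to -2.46), -2.32 (-2.38 to -2.25) and -4.61 (-4.93 to -4.31), and mt-Nd4l was higher at 3.27 (2.596 to 4.03), from 18 counts in 1 UOS cell and 575 counts in 11 OSalive cells. Mt-Nd3 had counts in 18 UOS and 4 OSalive cells.

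These strongly divergent genes share their sequence with nuclear copies of mitochondrial DNA, most of which lie in 1 stretch of chromosome 1. The copy of mt-Co3 is Gm28437 on chr1:24652270-24653052 (GRCm39), annotated as an unprocessed pseudogene. It matches mt-Co3 over all 783 shared bases with 0 differences. The first 120 bases of mt-Co3, chrM:8607-8726 on the plus strand, show a stretch in which no read can be told apart from the copy:

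mt-Co3 and Gm28437: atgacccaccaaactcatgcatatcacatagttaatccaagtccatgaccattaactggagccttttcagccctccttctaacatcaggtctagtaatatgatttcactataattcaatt

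Counts assigned to such copies were many. For mt-Atp6, the copy Atp6-ps held 84.1% of the counts of gene and copy in UOS and 95.5% in OSalive, for mt-Co2 the copies held 58.7% and 91.8%, for mt-Co3 58.9% and 83.2%, for mt-Nd3 62.5% and 89.5% and for mt-Nd4l 99.1% and 96.7%. With the copies added, which was chosen after seeing the data, the log2 ratio of OSalive to UOS became -0.21 for mt-Co2, -0.49 for mt-Atp6, -2.02 for mt-Co3, -2.78 for mt-Nd3 and 1.34 for mt-Nd4l. Mt-Co3 and mt-Nd3 therefore stayed lower with their copies. The 13 genes with their copies held 2.14% in UOS and 1.95% in OSalive, a log2 ratio of -0.13. Overlapping reading frames (mt-Atp8 with mt-Atp6, mt-Nd4l with mt-Nd4) and mt-Nd6, which lies on the opposite strand and is counted without strand here, add to the uncertainty of single genes. For nuclear members, 63 non-coding copies of 28 genes together held 0.968% to 1.72% of the counts of members and copies. Single genes differed from this pooled share. Over all groups, the copy Ndufb4c had 304 counts against 571 for Ndufb4, and Gm6969 had 877 against 3429 for Cox7a2l. Atp5mc2, with the highest relative ratio above, has the copies Gm10175 and Gm10231, each identical to it over 441 bases. They had 716 and 100 counts against 9827 for Atp5mc2. Ndufa12 also has a copy with counts, Ndufa12-ps, whereas the copies of Uqcr11 had 0 counts. Ratios of single nuclear genes are given without copies, which limits the reading of genes such as Ndufb4.

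**Figure D5:**
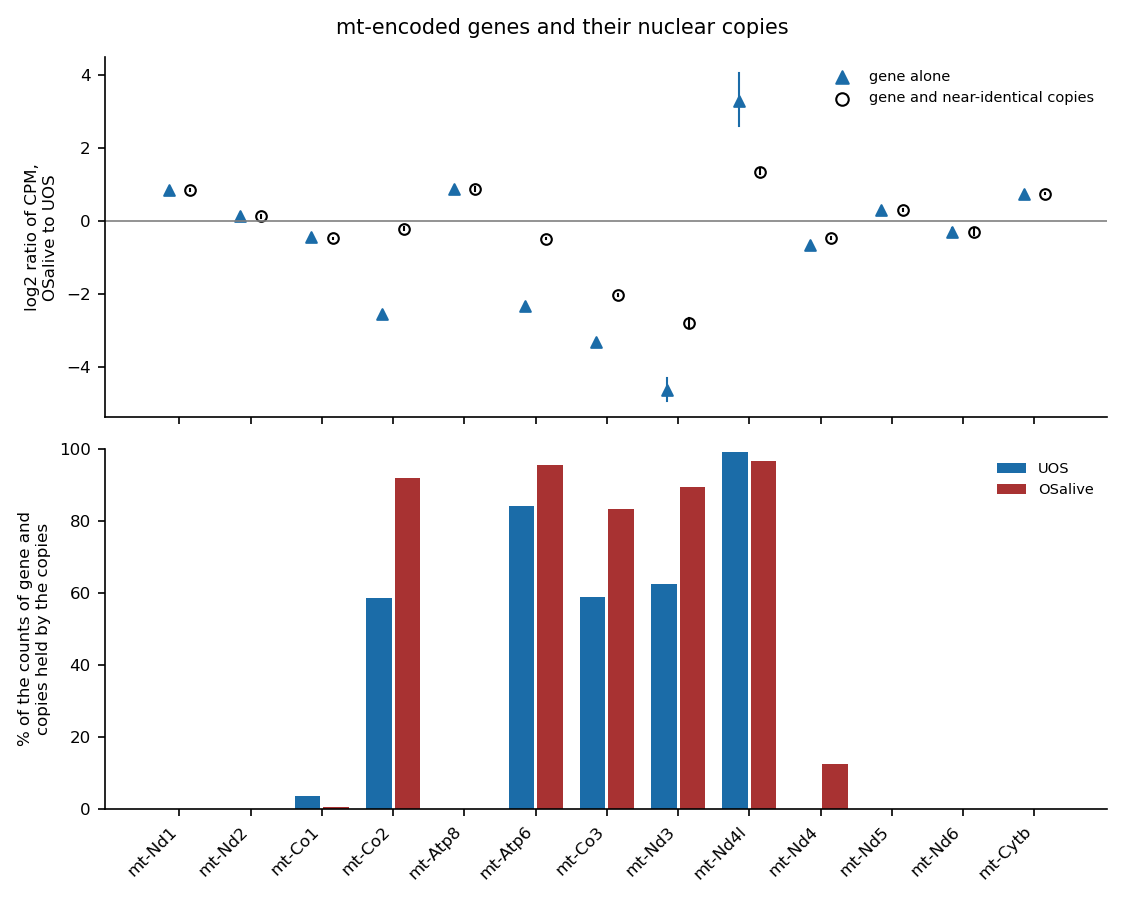
The 13 mt-encoded genes in genome order. Top: log2 ratio of CPM in OSalive to UOS for the gene alone (triangles) and with near-identical copies (circles), with 95% counting intervals. Bottom: share (%) of the summed counts held by the copies in UOS and OSalive. The 4 genes with ratios under -2 have copy shares of 83.2% or more in OSalive, and mt-Co2 moves from -2.53 to -0.21 when copies are added.

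OSapop and OSalive cells, both from CatVII, had near equal nuclear levels. Of 90 subunits, 79 passed the count minimum, their median log2 ratio of OSapop to OSalive was -0.17 and their median relative ratio 0.05. Past the fold were 1 lower and 6 higher, against 11.1% lower and 7.69% higher among 11988 genes. The lower one was Sdhc, with 44.4 CPM in OSalive and 18.6 CPM in OSapop, a log2 ratio of -1.25 (-1.45 to -1.06). Among the higher ones were Ndufa1, Ndufb6, Cox6c, Uqcr11 and Ndufa8. Cox6c had 11.3 CPM in OSalive and 23.1 CPM in OSapop, a log2 ratio of 1.03 (0.83 to 1.24), and Uqcr11 2.43 and 6.01 CPM, a ratio of 1.31 (0.88 to 1.73). Ndufa1 and Ndufb6, accessory subunits of complex I, had relative ratios of 1.80 and 1.54, from 3.02 and 3.25 CPM in OSalive. No complex had a median over 0.20 from 0, while the 8 assembly factors stood at 0.36.

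The mt-encoded sum was lower in OSapop, with a log2 ratio of -0.22 (-0.23 to -0.22) to OSalive. The difference was spread over the genes: 12 of 13 had a ratio below 0, at -0.59 (-0.63 to -0.54) for mt-Nd2, -0.48 (-0.49 to -0.46) for mt-Nd1, -0.27 (-0.29 to -0.26) for mt-Cytb and -0.04 (-0.05 to -0.03) for mt-Co1. Mt-Nd3 had 100 counts in OSalive and none in OSapop, and mt-Nd4l was the exception at 0.16 (-0.09 to 0.40). The sign of this ratio was not stable. In cells of 50000 to 200000 counts, a range chosen after seeing the data, it was 0.06, and the cause of this move was not tested. In OSalive, 1 cell with 12.8% mt-encoded counts gave 8.43% of the mt-encoded counts, and without it the OSalive share was 1.52% against 1.64% with it.

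Within AnaVI, MOS and UOS carry the same region label and differed in the mt-encoded genes. The mt-encoded share of MOS stood below that of UOS, at a log2 ratio of -0.98 (-0.9997 to -0.95), and all 12 mt-encoded genes with 100 or more counts were lower, between -0.52 for mt-Atp8 and -3.83 for mt-Nd3. Nuclear subunits differed little, with a log2 ratio of the sums of -0.20 (-0.23 to -0.17) and a median relative ratio of -0.15 over 79 subunits. Past the fold were 5 lower and 0 higher, against 16.6% lower and 10.9% higher among 10439 genes. The 5 were Ndufs1, Ndufa12, Atp5mj, Ndufb2 and Ndufb4, of which Ndufs1 had 78.7 CPM in UOS and 20.4 CPM in MOS, a log2 ratio of -1.95 (-2.48 to -1.46). At the other end Ndufs7 had a relative ratio of 0.98 and Uqcr10 0.77, and the assembly factor Ndufaf3 1.27.

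LOS had the highest nuclear share. The log2 ratio of LOS to UOS was 0.29 (0.27 to 0.31) for the nuclear sum and 0.24 (0.23 to 0.26) for the mt-encoded sum. Over 80 subunits the median relative ratio was 0.17, with 0 lower and 2 higher past the fold, against 14.4% lower and 13.5% higher among 10755 genes. The higher ones were Ndufb2, with 66.7 CPM in LOS and 25.5 CPM in UOS, and Ndufa4l2, with 20.7 and 6.66 CPM.

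The nuclear shares of the CatVI plates lay between those of UOS and CatVII, and their depth was low. This order did not hold for the mt-encoded shares or for every gene, since Atp5f1b was lower on plates 5 and 6 than in OSalive and OSapop. Short genes that are no members were also lower on the plates than in UOS. For 500 to 750 bases their median log2 ratio was -2.02, -0.67, -1.42 and -1.07 on plates 1, 2, 5 and 6. On plate 1 the median relative ratio to UOS was -0.67 over 79 subunits, with 29 lower and 7 higher past the fold, against 25.1% lower and 19.4% higher among all genes. On plate 2, with 9 cells, it was -0.07, with 21 lower and 5 higher against 25.8% and 23.7%. On plate 5 it was -0.25, with 15 lower and 4 higher against 25.2% and 19.6%. On plate 6 it was -0.58, with 26 lower and 2 higher against 21.9% and 18.6%. The complex II median was lowest on plate 5, at -1.78, where all 4 genes were past the fold lower. Between phagocytic plates, the log2 ratio of plate 5 to plates 1 and 2 together was -0.07 (-0.14 to -0.00) for the nuclear sum and -0.16 (-0.18 to -0.13) for the mt-encoded sum, and the latter includes the plate 2 cell named above. Plate 6 to plate 5, both labelled apop, gave 0.06 (-0.04 to 0.17) and 0.18 (0.14 to 0.22).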

How the data were processed

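Per the study's methods and the submitters' processing notes, the authors trimmed the reads, aligned them with STAR 2.6 to mm39, quantified with Salmon 1.4.0 and summed transcripts to genes with tximport in R 3.6.1. The deposited values are estimated counts per gene and cell, without normalization, and were rounded to whole counts here. Libraries were primed on poly-A tails and carry no strand. Cells were assigned to groups by title, and 1 cell with conflicting labels was left out. A cell needed 2000 detected genes. Counts of a group's cells were summed and scaled to 1000000 protein-coding counts. Gene names, types and canonical transcript lengths came from GENCODE mouse release 39, in which 93.3% of the 55335 gene rows were found. Ratios have exact 95% intervals, shares Wilson intervals. A gene needed 100 counts over both groups, and a count of 0 was set to 3. With 1 pool per group no test was made. Near-identical copies were found with blastn 2.17.0 (95% identity over 50% of the shorter transcript). The ratio script was tested on simulated data. Python 3.11.15, numpy 2.4.6, pandas 2.3.3, scipy 1.17.1 and matplotlib 3.10.9 were used.

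The members, the other gene lists and the tests were chosen with earlier results of these data known. Named genes were the 13 mt-encoded genes, the 4 Sdh genes, the 3 highest per length in UOS in complexes I, III, IV and V, isoform sets, Atp5if1, and the 5 lowest and 5 highest nuclear members of OSalive to UOS, OSapop to OSalive and MOS to UOS. Ndufv1 and Uqcrfs1 were named after their values were seen, as were the members past the fold that the text lists. Alternatives with the coding length, without Lars2, with copies added, in cells of 50000 to 200000 counts and with MOS as the reference were added after seeing the data. Results of some items are not reported here.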

Additional observations from a re-analysis of the deposited data

Results flagged for a closer look

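Cells with under 2000 detected genes entered no comparison. In these cells the pooled mt-encoded share of protein-coding counts was 15.6% on plate 1, 20.3% on plate 2, 34.6% on plate 5 and 8.52% on plate 6, above the 0.877% to 2.08% of such cells in LOS, MOS, UOS, OSalive and OSapop. The cell with the largest number of mt-encoded counts gave 27.5%, 35.1%, 12.2% and 26.1% of them on plates 1, 2, 5 and 6. Without it, the mt-encoded shares on these plates were 12.95%, 16.02%, 32.99% and 6.58%. Plates 3 and 4, where all cells were under the minimum, did not share this. They had 0.128% of 779 and 0.747% of 2008 protein-coding counts. Among cells with 100 or more protein-coding counts, the share was over 10% in 14 of 29 on plate 1, 25 of 33 on plate 2, 41 of 50 on plate 5 and 14 of 31 on plate 6. The cells compared here were not alike. Their median number of detected genes ran from 334.5 in OSalive to 966 in MOS, with LOS, UOS and OSapop in between. It was lower on each of plates 1, 2, 5 and 6. The shares were not matched for this, and its part in the difference was not tested.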

How the results depend on the processing

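The median relative ratio of nuclear subunits between OSalive and UOS stayed below 0 in all 14 alternatives run, between -1.94 and -0.89. It moved from -1.36 to -0.89 in thinned cells (26 lower past the fold), -1.94 with the exon union as length (63 lower), -1.52 with the coding length, -1.005 in cells of 50000 to 200000 counts (38 lower) and -1.19 with MOS as the reference. The mt-encoded log2 ratio of OSalive to UOS moved from -0.05 to -0.40 when scaled to counts of all gene rows, 0.022 with median-of-ratios factors, -0.011 as a mean over cells, -0.035 in thinned cells, 0.0041 without genes of overlapping frames, -0.0135 without the deepest cell of each group, -0.0137 without Lars2, -0.13 with copies, -0.24 in cells of 50000 to 200000 counts and 0.92 with MOS as the reference, so its sign was not stable. For OSapop to OSalive it moved from -0.22 to -0.073 with all gene rows, -0.11 as a mean over cells, -0.14 in thinned cells, -0.24 without the deepest cells, -0.24 without Lars2, -0.24 with copies and 0.062 in cells of 50000 to 200000 counts. The cause of these moves was not tested. The nuclear median of OSapop to OSalive lay between -0.12 and 0.08. Scaling to all gene rows moved the median of all genes by -0.34 for OSalive to UOS and 0.15 for OSapop to OSalive.

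No paired analysis was possible because each group is 1 pool and no result comes from a test, and leaving out replicates was not possible for the same reason. Plates 2 and 6, with 9 and 14 cells, limit what can be read for single genes there. Canonical transcripts of some small subunits are long (Ndufb9 4197 bases, Uqcr11 2746 bases), which sets their length class. The class under 500 bases rests on 39 other genes, with a median OSalive to UOS log2 ratio of 0.30 against -1.67 in the next class. The relative ratios of Atp5me and Uqcr10 depend on this reference. On the CPM scale they were 11.96-fold and 8.03-fold lower in OSalive than in UOS.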
